A study of Mus musculus with 2 samples.

Results

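Mid-length H2BK120ub peaks, 3000 to 10000 bp long, that were called in only one of 2 libraries were examined on 15 autosomes (chromosomes 1 to 3, 5 to 12, 14, 15, 20 and 21). A peak was a member when it overlapped no peak of the other list by 1 bp. Of 229310 peaks in both lists, 14379 were members, 7058 of them from the WT list and 7321 from the UBR7-KO list. The other mid-length peaks on these chromosomes, 9640 in WT and 10839 in UBR7-KO, overlapped a peak of the other list and are called peaks with a counterpart. Members were chosen by their length and by the lack of an overlap, so their numbers, shares and distances describe the lists and were not tested.

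The question of the study was how loss of UBR7 in the liver changes the sites of H2BK120ub. Chromatin immunoprecipitation followed by sequencing (ChIP-seq) was performed on 1 library per genotype, from wild-type cells (WT) and from Alb-Cre;UBR7fl/fl cells (UBR7-KO). The study's methods give male mice of 8 weeks on a C57BL/6 background as the source of the primary liver cells, whereas the labels call the cells conditionally immortalized. In the UBR7-KO mice both Ubr7 alleles carry loxP sites and Cre is driven by the albumin promoter, which is active in hepatocytes. Any liver cells in the preparation that never had Cre activity would keep the gene. How many animals gave each library is not given in the sources used here.

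H2BK120ub is histone H2B carrying a single ubiquitin on a lysine near its C terminus. In mammalian cells the mark is written mainly by the RNF20-RNF40 ligase, is removed by deubiquitinases such as USP22, and lies over the bodies of transcribed genes, where it accompanies elongating RNA polymerase II. UBR7 is a PHD finger protein described as another ligase for this lysine. Since the mark follows transcription across genes, its peaks are often broad and come in neighbouring pieces rather than as sharp single sites.

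The samples are labelled as mouse, yet the positions are those of the human build hg19. All peaks lay within the chromosomes of hg19, and 467 WT-only and 402 UBR7-KO-only members lay on chromosomes 20 and 21, which the mouse genome lacks. Whether mouse reads were aligned to hg19 or the cells were human cannot be told from the sources used here. If the reads are from mouse, the positions, distances, runs and chromosome ends below are not locations in the genome of these cells. Positions below are in hg19, and genes were not analysed here. The pileup of a peak is the number of fragments stacked over it, and the fold enrichment is that pileup relative to the local background of its library, both as given by the peak caller. The lowest background recovered from these values (1st percentile) was 1.81 fragments for WT against 1.16 for UBR7-KO. The number of reads behind either library is unknown. With 1 library per genotype, no value below has a replicate error, and the intervals cover counting error only.

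The 2 sets were close in size with peaks as called. When peaks of a list within 5000 bp were merged first, they were not, at 5831 WT-only and 8805 UBR7-KO-only members (ratio 1.51). WT-only members were 42.3% of the 16698 WT mid-length peaks (95% Wilson interval 41.5 to 43.0), against a background of 60.8% without a counterpart among WT peaks of every length. UBR7-KO-only members were 40.3% of the 18160 UBR7-KO mid-length peaks (39.6 to 41.0), against 65.9% among UBR7-KO peaks of every length. The UBR7-KO list was 1.25 times as long as the WT list on these chromosomes, but its library-only mid-length set was 1.04 times as large. By covered length the order turned, with 34.97 Mb in WT-only members and 33.4 Mb in UBR7-KO-only members. The order of the numbers also turned when the UBR7-KO list was cut to the size of the WT list (ratio of UBR7-KO to WT 0.608). It turned as well when both lists were limited to a fold enrichment of at least 2.5 (ratio 0.219, 2058 and 450 peaks). Such a cut also leaves peaks unmatched whose counterpart falls below it. Of the members themselves, 585 WT-only and 143 UBR7-KO-only reached this fold enrichment. The ratio widened to 2.05 when both lists were limited to a pileup of 3 times the background or more. These 2 thresholds thus moved the ratio in opposite directions, and both rest on depth-dependent values.

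Members were mostly at the short end of the class. Lengths of 3000 to 3999 bp made up 39.0% of WT-only and 47.0% of UBR7-KO-only members, and lengths of 9000 to 10000 bp made up 3.60% and 1.52%. The lower quartile, median and upper quartile of length were 3557, 4419.5 and 5943 bp in WT-only members and 3441, 4098 and 5237 bp in UBR7-KO-only members. Peaks with a counterpart were longer in both lists, at medians of 4986.5 and 4881 bp, which the overlap rule favours.

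The share of peaks without a counterpart fell with length in both lists, and the lists crossed inside the mid-length class. Some fall with length is built into the rule, since a longer peak has more room for an overlap. This also bears on the mid-length shares lying below those over every length. At 3000 to 3999 bp the share was 49.3% in WT (48.0 to 50.6) and 50.9% in UBR7-KO (49.7 to 52.1). At 6000 to 6999 bp it was 37.9% in WT (35.7 to 40.2) and 29.6% in UBR7-KO (27.5 to 31.8), and at 9000 to 10000 bp it was 29.3% (26.4 to 32.4) and 15.9% (13.4 to 18.9). Thus short mid-length peaks went unmatched about equally often in both lists, whereas longer ones went unmatched more often in WT. When the UBR7-KO peaks were weighted to the lengths of the WT peaks, their share was 39.1%.

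**Figure D1:**
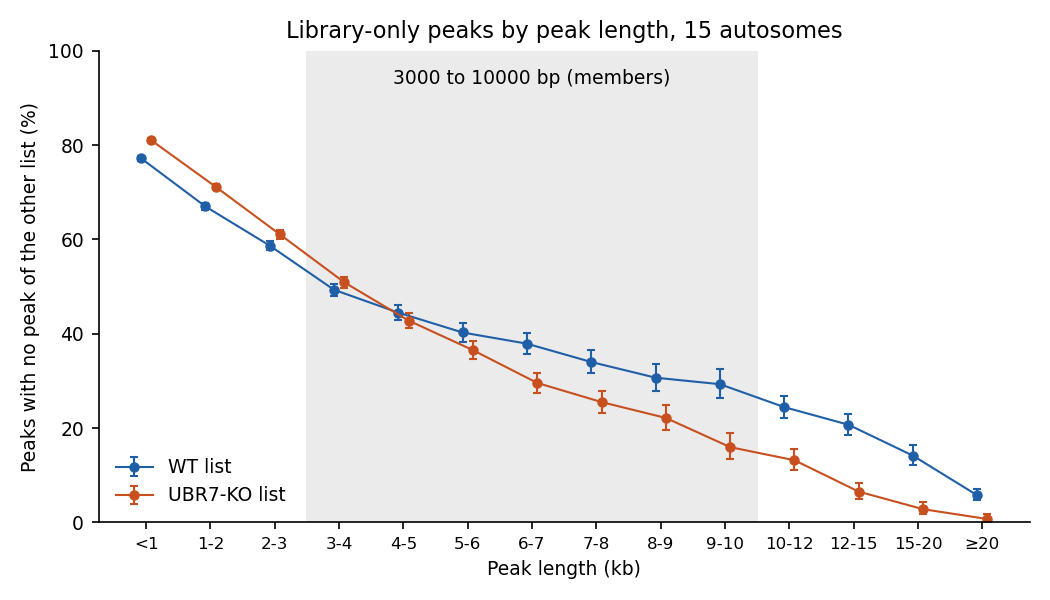
Share of peaks with no overlapping peak in the other list (y axis, %) by peak length (x axis, kb) on 15 autosomes, with 95% Wilson intervals that cover counting error only. The grey band is the class of the members; the intervals of the lists overlap from 3 to 6 kb, with UBR7-KO higher below 3 kb and WT higher above 6 kb.

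Members rose less far above their background than mid-length peaks of the same list with a counterpart. The median fold enrichment was 2.16 in WT-only members (quartiles 2.07 and 2.30) and 2.23 in WT peaks with a counterpart (2.10 and 2.42). In the UBR7-KO list it was 2.11 (2.05 and 2.20) and 2.13 (2.06 and 2.25). The order held in each 1000 bp class of length from 3000 to 10000 bp in both lists, though by little in some: at 9000 to 10000 bp the UBR7-KO medians were 2.101 and 2.107. Members at or above a fold enrichment of 2.5 numbered 585 in the WT-only set (8.29%), against 18.3% of WT peaks with a counterpart, and 143 in the UBR7-KO-only set (1.95%), against 5.31%.

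The share of mid-length peaks found in one library fell as fold enrichment rose. When WT mid-length peaks were ordered by fold enrichment and divided into 4 groups of equal size, the share from the lowest to the highest group was 51.2%, 46.5%, 42.4% and 29.1%. In the same 4 groups of the UBR7-KO list it was 46.2%, 43.2%, 40.4% and 31.5%. The median length of the 8 groups stayed between 4319 and 4909 bp. Unmatched peaks were thus fewer, but still common, among the most enriched mid-length peaks of each list.

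The pileup of members was narrow in range for most. Its median was 6.51 in WT-only members (quartiles 5.91 and 7.26, lowest 4.62, highest 25.2) and 4.35 in UBR7-KO-only members (quartiles 4 and 4.73, lowest 3.36, highest 49.3). The median background under them was 2.43 and 1.502 fragments. These values scale with depth and were not compared between the libraries.

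Of the named members with the highest fold enrichment, most lay near the short end of the class. Over each set as a whole, fold enrichment changed little with length. Its median was 2.158 at 3000 to 3999 bp and 2.213 at 9000 to 10000 bp in WT-only members. In UBR7-KO-only members it was 2.116 and 2.101. In the WT-only set the 3 highest fold enrichments were 3.46 at chr8:29883657-29886716, 3.41 at chr5:85864026-85867331 and 3.36 at chr20:42017078-42020136. Their nearest UBR7-KO peaks were 12179, 34900 and 13767 bp away. They were 3059 to 3306 bp long, at the short end of the class. In the UBR7-KO-only set the 3 highest were 3.108 at chr5:54192747-54195782, 3.105 at chr11:128427139-128432361 and 3.10 at chr1:90284406-90287660, with the nearest WT peaks 12498, 4245 and 19872 bp away. The second of these was 5223 bp long, and the others were 3036 and 3255 bp.

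The longest members ranged in fold enrichment from 2.004 to 2.53. They were chr7:73421107-73431104 (9998 bp, fold enrichment 2.30), chr6:37610320-37620314 (9995 bp, 2.53) and chr12:56040253-56050244 (9992 bp, 2.13) in WT. In UBR7-KO they were chr12:121483490-121493474 (9985 bp, 2.04), chr8:2124786-2134755 (9970 bp, 2.21) and chr9:38099981-38109931 (9951 bp, 2.004). The first of each set had a peak of the other list close by, at 2026 bp from the WT-only member, where the UBR7-KO list had a peak of 13530 bp, and at 2034 bp from the UBR7-KO-only member, where the WT list had one of 3369 bp. The WT-only member on chromosome 6 stood farther off, with 25376 bp to the nearest UBR7-KO peak.

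Most members lay within 10000 bp of a peak of the other list (70.1% of WT-only and 61.8% of UBR7-KO-only members). The edge to edge distance had a median of 5615.5 bp for WT-only members, with quartiles of 2441 and 11679 bp, and a median of 7126 bp for UBR7-KO-only members, with quartiles of 2942 and 15113 bp. Within 5000 bp of the other list were 3247 WT-only members (46.0%, 44.8 to 47.2) and 2856 UBR7-KO-only members (39.0%, 37.9 to 40.1). The distance was shorter than the member itself for 44.0% and 36.0%. UBR7-KO-only members thus lay farther from the WT list than the reverse, on 14 of 15 chromosomes by the median, chromosome 20 being the exception. The chromosomes share the same libraries and are not replicates. This order was not particular to the members. Over unmatched peaks of all lengths the median distance was 9319.5 bp from the UBR7-KO side, against 7096 bp from the WT side. The UBR7-KO list, being 1.25 times as long, also offered WT-only members more peaks to lie near. How much of the difference this makes up was not tested. For members the order turned when the UBR7-KO list was cut by fold enrichment to the size of the WT list. This cut moved mainly the WT-only value, with medians of 7352.5 bp for WT-only and 7107 bp for UBR7-KO-only members.

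Only a few members were remote. More than 50000 bp from any peak of the other list were 35 WT-only and 137 UBR7-KO-only members, and more than 100000 bp were 2 and 11. The most remote WT-only members were chr8:77359199-77362236 at 108121 bp, chr7:53698617-53702631 at 105858 bp and chr5:79019981-79024241 at 94038 bp. The most remote UBR7-KO-only members were chr11:50757319-50760479 at 341242 bp, chr9:69838269-69841742 at 325999 bp and chr7:61526510-61530626 at 285520 bp. These 6 members were 3038 to 4261 bp long, with fold enrichments between 2.05 and 2.52.

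The nearest peak of the other list was longer, by the median, than the peaks of that list as a whole. Its median length was 1769.5 bp beside WT-only members, against 1347 bp over all UBR7-KO peaks. Beside UBR7-KO-only members it was 1760 bp, against 1556 bp over all WT peaks. Members had a minimum length by the rule, so the lengths of neighbours and members were not compared. Of the neighbours, 29.9% and 30.9% were under 1000 bp. Neighbours over 10000 bp were found for 4.75% and 5.05%. The neighbours themselves were often unmatched: 54.4% of those beside WT-only members overlapped no WT peak, against 65.9% over all UBR7-KO peaks. Beside UBR7-KO-only members it was 56.9%, against 60.8% over all WT peaks.

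**Figure D2:**
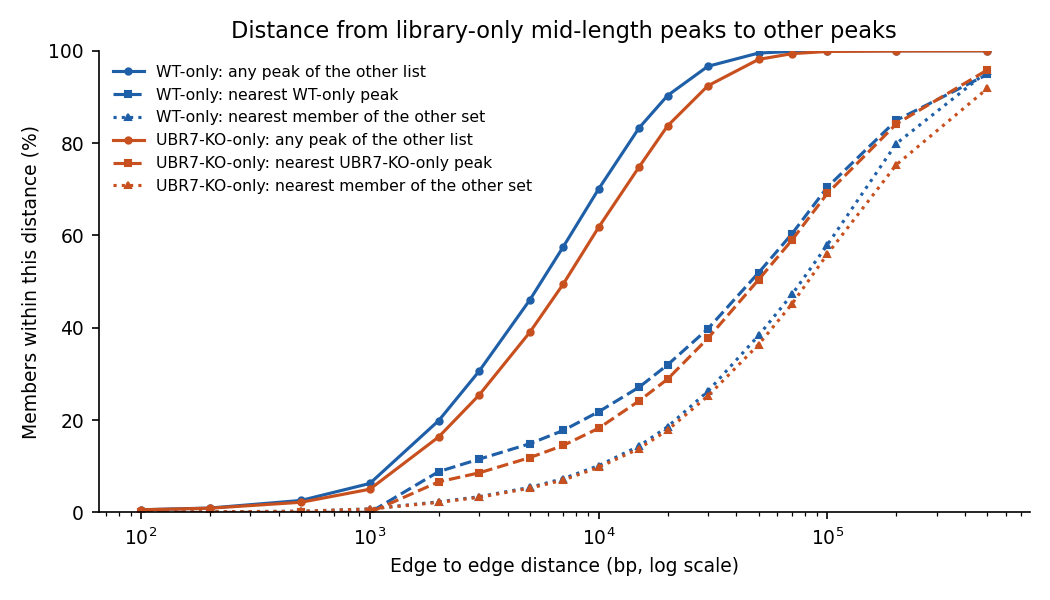
Cumulative share of members (y axis, %) within a given edge to edge distance (x axis, bp, log scale) of the nearest peak of any length in the other list, the nearest member of the same set and the nearest member of the other set. At 5000 bp the solid lines stand at 46.0% (WT-only) and 39.0% (UBR7-KO-only), and from 2000 to 200000 bp the dashed lines to the same set lie above the dotted lines to the other set.

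The surroundings of the members differed between the sets. At 50000 bp from the edge of WT-only members, 25.1% of positions were covered by a WT peak and 18.3% by a UBR7-KO peak. Over the 15 autosomes as a whole, WT peaks covered 11.3% and UBR7-KO peaks 10.1%. At the same distance from UBR7-KO-only members, 16.2% were covered by a UBR7-KO peak and 15.7% by a WT peak. At 50000 bp, members of either set thus sat in stretches more covered by both lists than the 15 autosomes as a whole. Around WT-only members WT coverage was also the higher at 10000 and 200000 bp. Around UBR7-KO-only members the order of the lists changed with distance. UBR7-KO peaks covered 16.6% and WT peaks 14.7% at 10000 bp, against 14.5% and 16.3% at 200000 bp.

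Peaks with a counterpart stood in denser surroundings than members. At 50000 bp the WT and UBR7-KO lists covered 27.7% and 21.1% around WT peaks with a counterpart, and 30.9% and 23.6% around UBR7-KO peaks with a counterpart. The gap was larger in the UBR7-KO list, where WT coverage fell from 30.9% around matched peaks to 15.7% around members. Some gap is built into the rule, since a counterpart can reach past the edge of a matched peak. At 250 bp from UBR7-KO peaks with a counterpart, 47.5% of positions were covered by a WT peak. How much of the gap at 50000 bp this makes up was not tested. By the rule no peak of the other list lay inside a member, and its coverage recovered over about 20000 bp: beside WT-only members UBR7-KO coverage was 2.85% at 1000 bp, 14.9% at 5000 bp and 18.3% at 20000 bp. Beside UBR7-KO-only members WT coverage was 2.25%, 12.1% and 16.2% at the same distances.

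**Figure D3:**
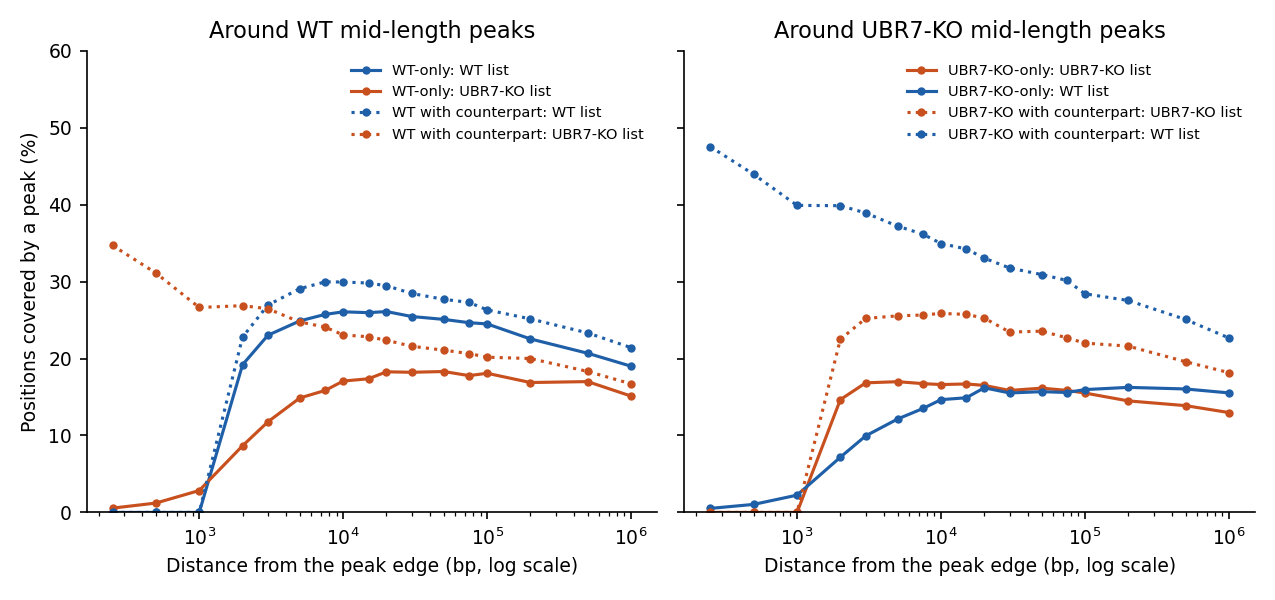
Share of positions covered by a WT peak (blue) or a UBR7-KO peak (orange) on the y axis (%) against the distance from the edge of the peak, pooled over both sides, on the x axis (bp, log scale). Solid lines are library-only mid-length peaks and dotted lines mid-length peaks with a counterpart; at 50000 bp the solid lines are at 25.1% and 18.3% around WT-only peaks and at 16.2% and 15.7% around UBR7-KO-only peaks.

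Mid-length peaks were also sorted by how much of their 1 Mb window the other list covered. Where UBR7-KO peaks covered under 5% of the window, 50.7% of 1012 WT mid-length peaks were members, and where they covered at least 30%, 30.5% of 2256 were. In the other direction the share went from 60.4% of 2467 UBR7-KO mid-length peaks to 20.9% of 5303. A fall is built into the rule, since a window with more coverage offers more to overlap. It was less steep in WT, where even in the most covered windows 689 mid-length peaks met no UBR7-KO peak, at a median distance of 3927 bp.

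Members of a set came in groups. When members of the same set within 50000 bp were joined into runs, 3665 of 7058 WT-only members (51.9%) and 3691 of 7321 UBR7-KO-only members (50.4%) shared a run with another. Runs of 5 or more numbered 98 in WT-only, holding 589 members (8.35%), and 80 in UBR7-KO-only, holding 459 (6.27%). Of mid-length peaks with a counterpart, 65.3% in WT and 69.5% in UBR7-KO shared a run. These were also denser, at 4.35 and 4.89 per Mb against 3.19 and 3.31 members, and a denser set has more neighbours within a fixed distance. The sets differed little in the share that had company, and the order of the 2 shares turned when only lengths up to 8000 bp were taken (47.8% and 48.3%).

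Over larger distances the WT-only set was the more uneven. Across 2225 windows of 1 Mb, the variance of the member count over its mean was 4.31 for WT-only (mean 3.17 per window) and 3.26 for UBR7-KO-only members (mean 3.29). At least 10 members were found in 173 and 116 windows, and no member in 650 (29.2%) and 525 (23.6%). UBR7-KO-only members were thus spread more evenly than WT-only members. For mid-length peaks with a counterpart the ratio was 6.54 in WT (mean 4.33) and 7.87 in UBR7-KO (mean 4.87).

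Members lay nearer to their own kind than to the other set. The nearest WT-only member was at a median of 46606 bp from a WT-only member, and the nearest UBR7-KO-only member at 77935.5 bp. From UBR7-KO-only members the medians were 49101 bp to the own set and 82315 bp to the other. The own set was nearer for 59.1% of WT-only and 61.3% of UBR7-KO-only members, although the sets had similar densities. Some difference is built into the rule. A member of the other set cannot overlap any peak of the own list, so it is kept off positions that the own set can take. How much of the difference this makes up was not tested. Between neighbouring members of a run, a peak of the other list lay in 52.5% of 2315 WT-only gaps and 51.1% of 2256 UBR7-KO-only gaps, and a member of the other set lay in 8.77% and 8.60%. UBR7-KO-only members were 7.65% of all UBR7-KO peaks on these chromosomes, and WT-only members 9.24% of all WT peaks.

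At the scale of 1 Mb the sets occupied much of the same territory. Both had members in 1399 windows (62.9%), WT-only members stood alone in 176 and UBR7-KO-only members in 301. The member counts of the sets had a Spearman's rho of 0.61 over the windows, against 0.88 between the counts of WT and UBR7-KO peaks with a counterpart, which are matched by the rule. The windows share the same libraries and are not replicates. Of the windows with at least 10 members in all, 170 of 642 (26.5%) held at least 2 times as many WT-only as UBR7-KO-only members, and 124 (19.3%) the reverse.

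The fullest windows of the 2 sets were different places. WT-only members were densest at chr12:117000001-118000000 (19 members), chr2:11000001-12000000 (18) and chr5:172000001-173000000 (18), where the other set had 4, 5 and 4. UBR7-KO-only members were densest at chr12:119000001-120000000 (21), chr14:96000001-97000000 (20) and chr8:20000001-21000000 (18), where the other set had 3, 7 and 4. On chromosome 12, these windows lay 1 Mb apart: WT peaks covered 31.5% of the first and 8.25% of the second, and UBR7-KO peaks 19.3% and 23.6%. In the other WT-dense windows the WT list covered 29.1% and 36.5% and the UBR7-KO list 18.7% and 21.9%. In the other UBR7-KO-dense windows the WT list covered 16.7% and 9.48% and the UBR7-KO list 26.0% and 21.7%. In all 6 windows the list whose members were densest covered more than the other list. The choice of windows favours this, since by the rule members add coverage to their own list only.

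The largest run of WT-only members held 16 in 352 kb at chr6:166795390-167147674. WT peaks covered 53.3% of this stretch with 37 peaks, and UBR7-KO peaks covered 15.3% with 18 peaks, the longest of 9571 bp. The members there were 16 to 14019 bp from a UBR7-KO peak. UBR7-KO peaks were thus present along the run, and covered more of it than of chromosome 6 as a whole (7.73%). The second run, chr15:75318709-75490768, held 11 members, with coverage of 41.1% in WT and 13.1% in UBR7-KO.

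The third run of WT-only members was a stretch with no UBR7-KO peak at all. At chr12:132508293-132578472, 70.2 kb held 10 members and 11 WT peaks in all, which covered 80.0% of it. The members were 3183 to 9929 bp long, with fold enrichments of 2.0004 to 2.58 and pileups of 6.26 to 8.73. The nearest UBR7-KO peaks were 2261 to 38188 bp away. Of the 6 runs described, this was the only one without a peak of the other list.

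The 3 runs of UBR7-KO-only members were less covered by their own list than the 3 WT-only runs. The first held 10 members at chr1:14941027-15198247 (257 kb), where UBR7-KO peaks covered 36.9% and WT peaks 13.6%. The second held 9 at chr7:71649671-71862097 (212 kb), with 31.4% and 7.34%. The third held 8 at chr8:20258707-20477771 (219 kb), with 29.3% and 2.24%, the latter in 5 WT peaks of up to 1597 bp. Fold enrichments in these runs were between 2.01 and 2.43.

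**Figure D4:**
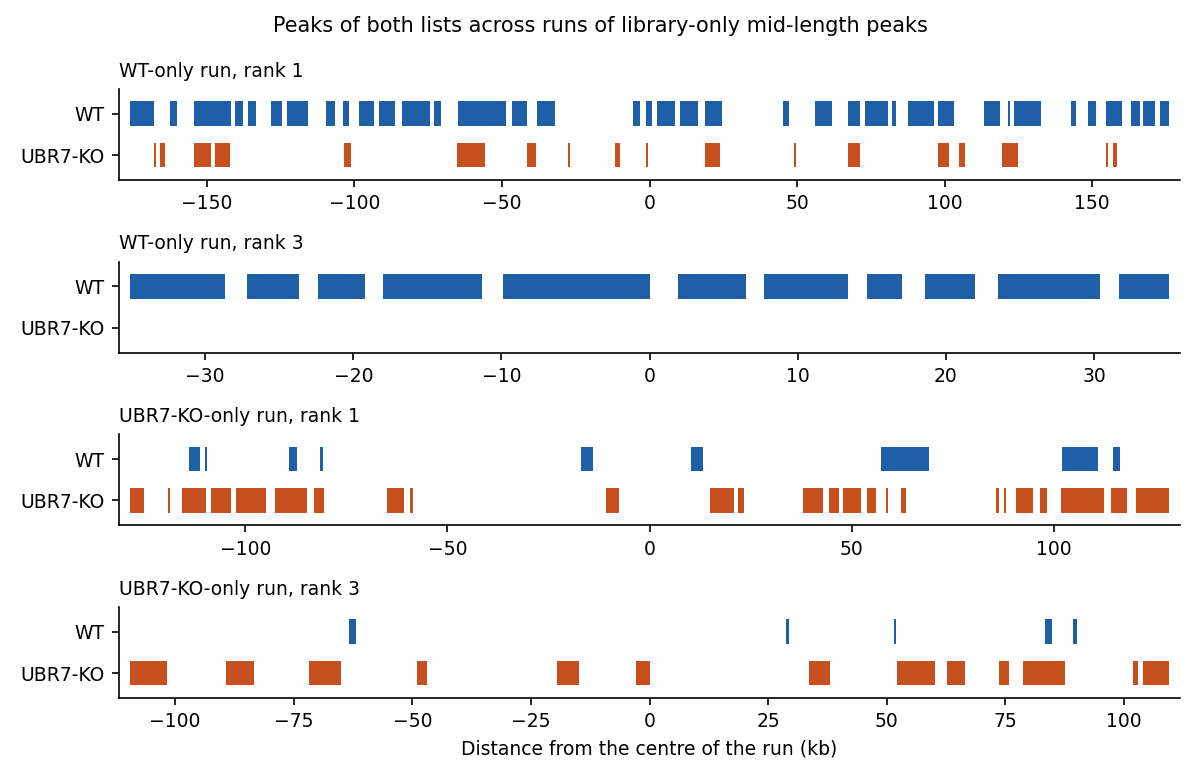
Peaks of the WT list (blue, upper row) and the UBR7-KO list (orange, lower row) across the runs ranked 1 and 3 of each set, against the distance from the centre of the run (x axis, kb). The third WT-only run, 70.2 kb with 10 members, has no UBR7-KO peak, whereas the other 3 panels have 18, 9 and 5 peaks of the other list.

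Chromosomes differed more in the density of members than in their share. The share of WT mid-length peaks that were members ran from 38.3% on chromosome 7 to 45.8% on chromosome 3, and the share of UBR7-KO mid-length peaks from 34.2% on chromosome 21 to 46.9% on chromosome 3. It was higher in WT on 11 of 15 chromosomes, but the Wilson intervals of the lists overlapped on all 15. Chromosome 3 thus had the highest share in both lists, at intervals of 43.0 to 48.6 and 44.2 to 49.7, and neighbours in the order of chromosomes could not be told apart within their intervals.

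UBR7-KO-only members were more numerous on 11 of 15 chromosomes. The ratio of UBR7-KO-only to WT-only members ran from 0.839 on chromosome 20 (287 and 342) to 1.22 on chromosome 8 (471 and 387). Chromosomes 2, 6 and 21 were the others with more WT-only members. Chromosome 20 had the highest density of both sets, with 5.43 WT-only and 4.55 UBR7-KO-only members per Mb, and was also the most covered of the 15, at 20.6% in WT and 16.999% in UBR7-KO. The lowest density was 2.56 per Mb on chromosome 5 for WT-only and 2.39 per Mb on chromosome 21 for UBR7-KO-only members.

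Chromosome ends held relatively fewer members than matched peaks. Within 2 Mb of an end were 283 WT-only members (4.01%) and 155 UBR7-KO-only members (2.12%). Of mid-length peaks with a counterpart, 8.40% in WT and 8.995% in UBR7-KO lay there, in stretches that make up 2.71% of the length of the 15 autosomes. UBR7-KO-only members were thus the only one of these 4 classes with a smaller share there than the share of length.

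**Figure D5:**
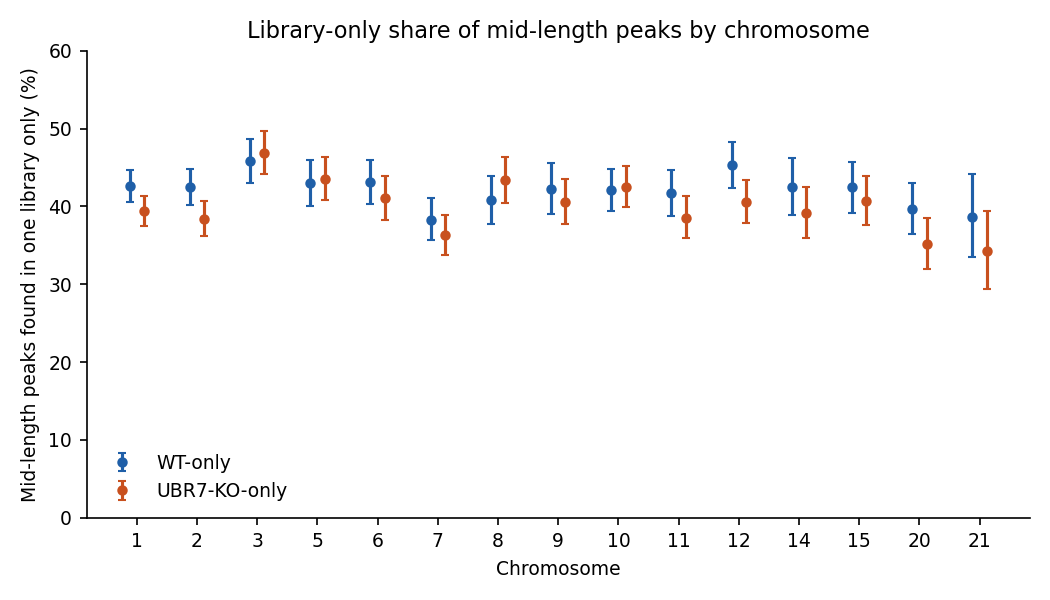
Share of mid-length peaks that were found in one library only (y axis, %) on each of the 15 chromosomes (x axis), with 95% Wilson intervals that cover counting error only. The shares run from 38.3% to 45.8% in WT and from 34.2% to 46.9% in UBR7-KO, with overlapping intervals on every chromosome.

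At the limits of the rule, members passed without a break into non-members. The shortest members measured 3000 bp, such as chr1:40332854-40335853 in WT (fold enrichment 2.68) and chr1:74379723-74382722 in UBR7-KO (2.17). Unmatched peaks just below were 2999 bp long at chr20:44106258-44109256 in WT (2.06) and chr12:119699578-119702576 in UBR7-KO (2.12). Unmatched peaks just above the class measured 10003 bp at chr10:5981226-5991228 in WT (2.10) and 10007 bp at chr1:14824651-14834657 in UBR7-KO (2.22). The member nearest to the other list was 1 bp from it in WT (chr7:4056767-4062314) and 2 bp in UBR7-KO (chr9:91426868-91430307). The smallest overlap that kept a mid-length peak out of the sets was 1 bp in WT (chr15:78532667-78535683) and 4 bp in UBR7-KO (chr11:123479219-123482458).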

How the data were processed

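Peak lists of 2 H2BK120ub ChIP-seq libraries, 1 per genotype as given by the genotype label, were analysed as deposited. According to the study's methods, alignment by the authors used BWA aln and hg19, whereas the submitters' processing notes list Bowtie 1.1.2 and FastQC. By the same methods, peaks were called in each library separately with MACS under an unstated q-value threshold. The methods also describe a list for each mark with peaks that recurred at least 2 times. Whether the deposited lists are of that kind is not given. Rabbit IgG is named beside the H2BK120ub antibody in the immunoprecipitation, but whether an IgG library entered peak calling, and the mode of the caller, are not given in the sources used here. The deposited pileup is a signal that depends on depth, and the deposited fold enrichment is a ratio to the local background of the same library, so their levels were described within a list. Thresholds on them were applied to both lists alike in some alternatives, whose ratios between the lists rest on these depth-dependent values. The lists hold no p-value and no read count, so depth is unknown.

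The UBR7-KO list lost 6 blank rows. Lengths matched positions in both lists, and positions were counted from 1 with both ends included. The background was recovered from the fold enrichment taken as the pileup plus 1 over the background plus 1. Distances are the bases between peak edges. Members of a set at most 50000 bp apart formed a run, and windows of 1 Mb counted midpoints. The 95% Wilson intervals of shares cover counting error only and treat neighbouring peaks as independent. No test between genotypes was possible with 1 library each. Chromosome lengths came from GenomeInfoDb 1.38.1. Python 3.11.15, numpy 2.4.6, pandas 2.3.3, scipy 1.17.1 and matplotlib 3.10.9 were used. On 20000 simulated peaks, the code was tested and gave back the built-in share of 40% and the same distances as bedtools 2.31.1.

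The members and lists were chosen with earlier results of these data known. Regions named are, in each set, the 3 with the highest fold enrichment, the 3 longest, the 3 farthest from the other list, the 3 largest runs (ties by covered length), the 3 fullest windows (ties by position) and those at the limits of the rule. Planned promoter, gene, gene list and cell type marker counts were not run, because the positions are human and the only gene table used here is murine. The liver cell label was therefore not checked against markers.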

Additional observations from a re-analysis of the deposited data

How the results depend on the processing

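Of 112 values computed under alternatives, 58 stayed within the limits set (1.5 times, or the Wilson interval of a share), 45 moved and 9 turned the order of the lists. Values are WT first, then UBR7-KO, and ratios are UBR7-KO over WT. The cause of these moves was not tested. Lengths from 2500 bp gave shares of 45.3% and 44.4%, with 57.7% and 56.6% of members in runs. Lengths up to 8000 bp gave shares of 43.8% and 42.4%, with 47.8% and 48.3% in runs (ratio 1.01, turned). All 22 autosomes gave 41.3% and 38.8%. A fold enrichment of at least 2.5 in both lists left 2058 and 450 members (ratio 0.219, turned), 87.7% and 62.6% of the class. Cutting the UBR7-KO list to the size of the WT list gave a number ratio of 0.608 (turned), shares of 52.3% and 38.5% and a distance ratio of 0.967 (turned). Merging within 5000 bp gave 5831 and 8805 members (number ratio 1.51) and shares of 45.3% and 49.98% (share ratio 1.104, turned). A counterpart within 1000 bp gave 39.6% and 38.3%, and one within 5000 bp gave 3811 and 4465 members, or 22.8% and 24.6% (ratio 1.08, turned). A counterpart over at least 50% of the peak gave 11218 WT members, a number ratio of 0.958 (turned) and shares of 67.2% and 59.2%. Runs joined within 25000 bp held 35.6% and 33.2%, and within 100000 bp 70.5% and 69.1%. Variance over mean was 1.49 and 1.37 in windows of 100000 bp, and 11.6 and 7.59 in windows of 5000000 bp. Median distances were 9732.5 and 11198.5 bp between midpoints, and 75378 and 54765 bp to peaks of the other list with a fold enrichment of at least 2.5 (ratio 0.727, turned). The following were chosen after seeing the data. A pileup of at least 3 times the background left 2084 and 4281 members (ratio 2.05), or 60.6% and 73.7% (ratio 1.22, turned), and weighting to WT lengths gave 39.1% for UBR7-KO. The medians of fold enrichment relative to peaks with a counterpart stayed under 1 in both lists under the plain ratio of pileup to background and on all 22 autosomes, and WT kept the larger variance over mean under every window, length class and chromosome set run. Settings for genes and promoters were not run. No paired analysis was possible because there was 1 library per genotype, and no replicate could be left out. How often 2 libraries of 1 genotype would miss each other's mid-length peaks is unknown, and unequal depth and genotype cannot be told apart.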
